A study of Mus musculus with 6 samples.

Results

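The nuclear-encoded subunits of the mitochondrial respiratory chain were taken as all gene symbols beginning with the family names of complexes I to V (Nduf with a, b, c, s or v and a number; Sdha to Sdhd; Uqcr; Cyc1; Cox4 to Cox8 subunits; Atp5) that had at least 60 reads summed over the 6 libraries. Of 86 matching symbols among the 38926 listed, 81 reached this minimum: 36 of complex I, 4 of complex II, 9 of complex III, 16 of complex IV and 16 of complex V. The lowest members that were kept were Cox4i2 with 70 reads and Atp5l with 114 reads. The symbols left out were Atp5g2 with 23 reads, Atp5l2 with 15 reads, Cox7b2 with 8 reads, and Atp5l-ps1 and Cox8c with 0 reads. All 81 passed the filter on low counts and were among the 16706 genes tested. Symbols decided the complex, so Ndufa4 stands with complex I although it is now counted with complex IV, and Atp5s and Atp5sl stand with complex V although they encode no subunit of the ATP synthase.

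The study set vincristine, a microtubule-binding chemotherapy drug known for its sensory neuropathy, against its vehicle in wild-type mice. Ganglia of lumbar levels 3, 4 and 5, which hold the cell bodies of sensory neurons with satellite glia and Schwann cells, came from the side of the treated paws of female C57BL/6 mice aged 8 to 10 weeks. The vincristine group comprised 3 libraries, from animals given a cumulative 40 µg by injection into the paw, and the vehicle group 3 libraries. Each library was made from ganglia pooled from 4 animals, so the spread between libraries is the spread between pools and animals cannot be seen singly.

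Respiratory chain complexes I to IV pass electrons from NADH and succinate to oxygen, and complexes I, III and IV pump protons across the inner mitochondrial membrane as they do so. Complex V, the ATP synthase, lets the protons back and makes ATP. Most subunits are encoded in the nucleus and imported, and a small core of complexes I, III, IV and V is encoded by mitochondrial DNA. Sensory neurons carry mitochondria along very long axons on microtubules.

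Reads in genes ranged from 12374331 to 26346304 in the vincristine libraries and from 17967934 to 19917055 in the vehicle libraries. Vincristine replicate 1 stood apart on the first principal component, which held 56.4% of the variance, and had the fewest reads and the largest share of reads outside annotated genes, 24.8%. Its 12 neuronal marker genes summed to 4192 CPM (reads scaled by library size with TMM factors), against 9027 and 11015 CPM in the other vincristine libraries and 9017, 11992 and 11888 CPM in vehicle. Medians over gene groups are therefore also given without this library. In bulk ganglia, fewer cells of a type and less RNA per cell cannot be told apart.

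None of the 81 genes passed an adjusted p of 0.05 (edgeR quasi-likelihood test, Benjamini-Hochberg over all genes tested), a threshold that 0.359% of the tested genes passed. The lowest adjusted p among them was 0.321, for Ndufb3. On simulated counts the same test called 0 of 50 genes changed 1.5-fold and 28 of 50 changed 2-fold. The lack of calls therefore does not show that these genes were unchanged. DESeq2 called 0 of them, against 3.41% of the tested genes, and edgeR without vincristine replicate 1 called 0, against 2.05%. The point estimates were on the negative side for most of them: 74 of 81 had a log2 fold change below 0, against 50.7% of all genes tested, with a median of -0.16, against -0.0033 over all genes tested. With the p left unadjusted, 6 were under 0.05 and lower in vincristine (3.27% of tested genes) and 0 were higher (8.10%). DESeq2 put 10 of them lower (4.14% of tested genes) and 1 higher (8.48%) at the same level. Without vincristine replicate 1 edgeR put 4 lower (4.25%) and 0 higher (8.78%), so that the share lower was near that of all genes. The estimates depended on vehicle libraries too. Without vehicle replicate 1 the edgeR median was -0.11 and 69 genes were negative. At an unadjusted p under 0.05 it then put 0 of the 81, against 1462 of 16973 tested genes. Without vehicle replicate 2 the median was -0.15, 76 were negative, and 0 were under 0.05, against 1063 of 17003.

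The lower values were shared unevenly between libraries. Relative to the vehicle mean, the median log2 difference over the 81 genes was -0.26, -0.10 and -0.11 in vincristine replicates 1, 2 and 3, and 0.09, -0.01 and -0.07 in vehicle replicates 1, 2 and 3. Vincristine replicate 1 held the lowest of the 6 values for 54 genes, while it held the lowest value for 36.8% of all genes tested. Vehicle replicate 1 held the highest of the 6 values for 51 genes, a count not set against all genes tested. In 53 of the 81 genes all vincristine libraries lay below the vehicle mean, against 22.7% of tested genes, and in 2 all lay above it, against 23.3%.

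In 25 genes every vincristine value was below every vehicle value (9.51% of tested genes), and in 0 genes was every vincristine value above (11.5%). Without vincristine replicate 1 the count was 31 below (13.0% of tested genes) and 2 above (17.7%; Ndufa8 and Uqcrc1, named after their values were seen), the median log2 fold change was -0.11, and 66 genes were negative. The 81 genes together summed to 7247, 8384 and 8376 CPM in the vincristine libraries, against 9279, 8906 and 8538 CPM in the vehicle libraries. The groups did not overlap in this sum, and the means were 8002 ± 654 CPM in vincristine and 8908 ± 370 CPM in vehicle (SD, n = 3 each), a ratio of 0.898, or 0.941 without vincristine replicate 1. For 69 of the 81 genes (85.2%) the 95% interval of the fold change lay within 1.5-fold in either direction, against 47.6% of tested genes.

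**Figure D1:**
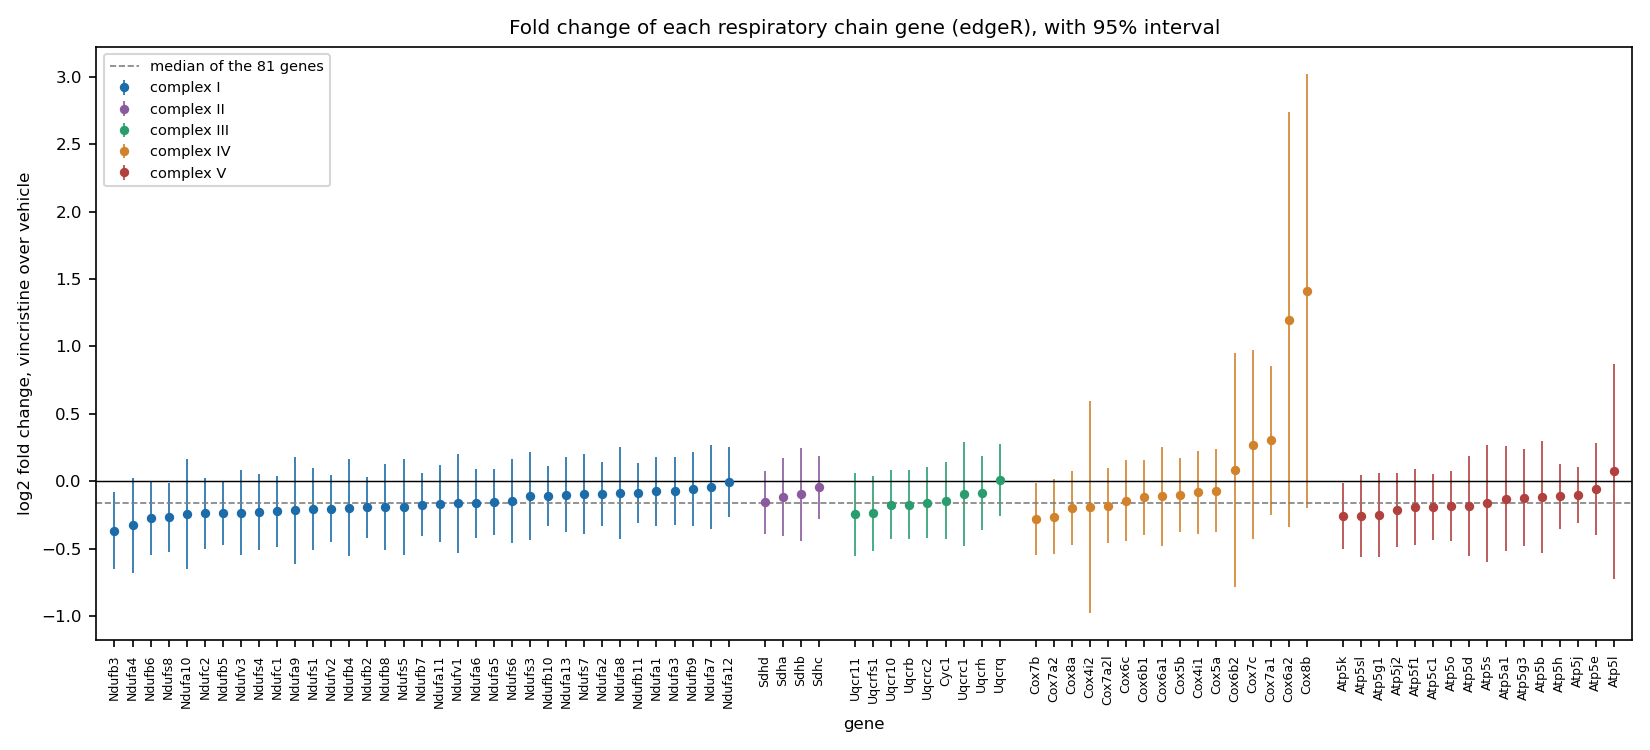
Log2 fold change, vincristine over vehicle, of 80 of the 81 genes by complex, with 95% intervals from the edgeR fit. The points of complex I are all below 0, and the muscle isoforms Cox6a2 and Cox8b of complex IV stand above the rest with the widest intervals.

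Levels were compared between genes as TPM, which divides reads by exon length. In vincristine and in vehicle the median TPM was 108 and 126 for complex I, 130 and 145 for complex II, 122 and 140 for complex III, 114 and 128 for complex IV, and 123 and 136 for complex V. The medians of the complexes lay close together, while genes within a complex spanned wide ranges. In vehicle, 53 of the 81 genes exceeded 100 TPM and 6 were under 10 TPM.

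The most abundant genes belonged to complexes IV and V. Cox6a1, a cytochrome c oxidase subunit of most tissues, had 621 ± 101 TPM in vincristine and 689 ± 15.4 TPM in vehicle (SD, n = 3 each). Atp5b, the catalytic beta subunit of the ATP synthase, had 521 ± 84.5 TPM in vincristine and 581 ± 47.6 TPM in vehicle. The leading genes of the other complexes were Ndufa4, with 406 ± 59.0 TPM in vincristine and 523 ± 16.3 TPM in vehicle, Uqcr10, with 338 ± 16.6 and 391 ± 0.332 TPM, and Sdhd, a membrane anchor of succinate dehydrogenase, with 195 ± 8.44 and 223 ± 7.50 TPM. By vehicle level, Cox6a1 was followed by Cox8a, Cox6b1, Atp5b, Atp5o, Cox4i1, Atp5a1 and Ndufa4. From Cox6b1 to Ndufa4, neighbours in this order differed by less than their SD. The order also depends on the length used. With the longest transcript in place of all exons, Atp5b led in vehicle with 1098 TPM, before Cox4i1 with 965 and Cox6a1 with 667 TPM.

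**Figure D2:**
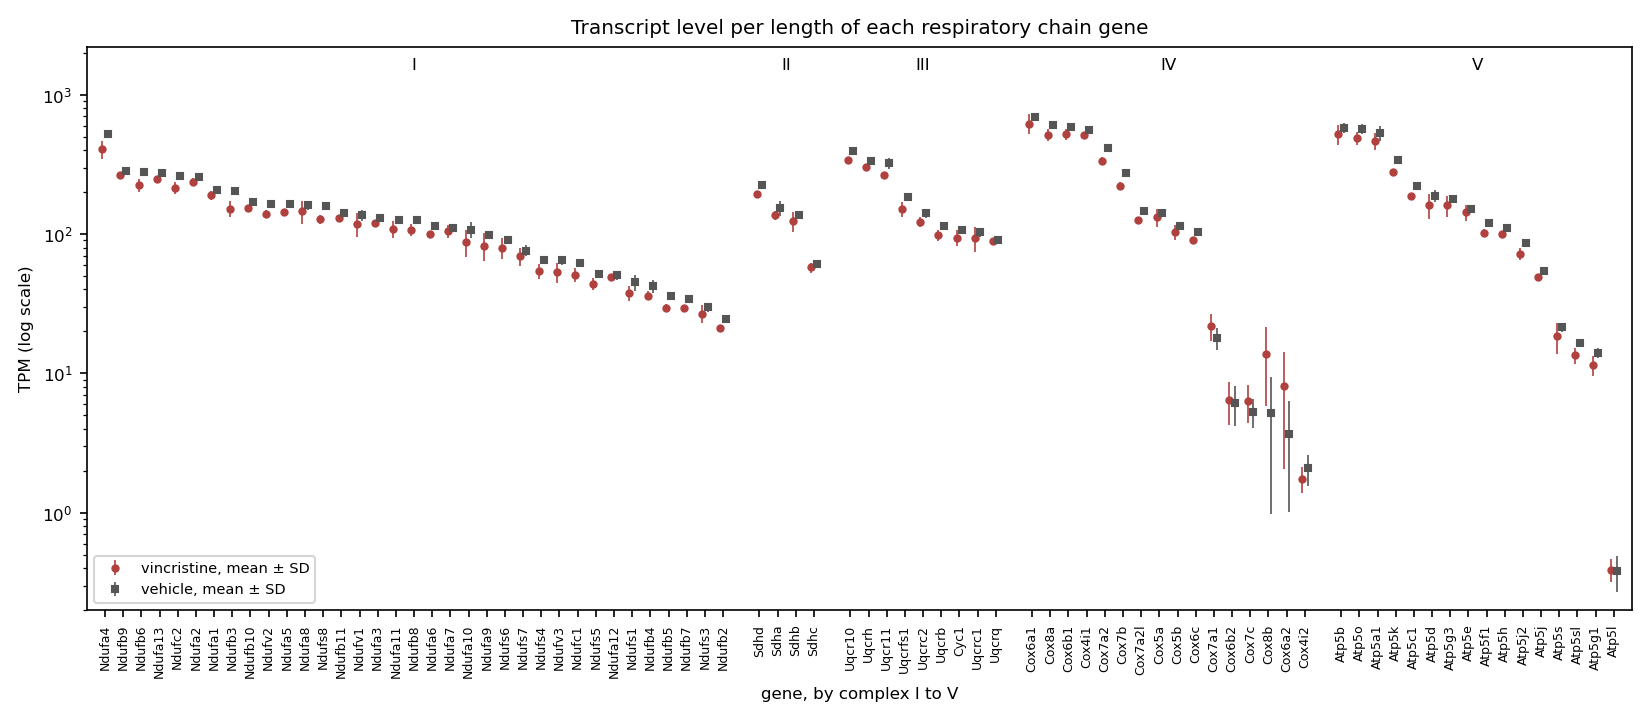
Mean TPM (log axis) of 80 of the 81 genes by complex in vincristine and in vehicle, with the SD of 3 libraries. Complex IV spans from Cox4i2 at 2.09 TPM to Cox6a1 at 689 TPM in vehicle, and complex V from Atp5l at 0.379 TPM to Atp5b at 581 TPM.

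The low end of the order held 2 kinds of gene. Cox4i2, Cox6a2, Cox8b and Cox6b2 are isoforms best known from lung, heart and skeletal muscle, or testis. Atp5l and Cox7c encode subunits of every tissue but had 0.379 and 5.31 TPM in vehicle. For Atp5l the TPM divides by 6443 exon bases, and its longest transcript has 6310 bases. Its main annotated transcripts gave only 470 windows of 75 bases, so this TPM may be too low and its rank is uncertain. Windows were taken from the main annotated transcripts of each gene, or from all transcripts where none was marked. Of these 75-base windows, 63.4% of Atp5l and 50.4% of Cox7c also occurred in another annotated gene. Reads from such windows have no unique place. Ndufb4, Uqcrb, Atp5h and Ndufs3 had between 27.1% and 35.2% of such windows.

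The 6 genes with over 25% shared windows had a median of 31.5 TPM in vincristine and 36.1 TPM in vehicle. The 17 genes with fewer shared windows had a median of 103 and 120 TPM, and the 58 genes with none had 130 and 147 TPM. Levels of these 6 genes are therefore uncertain, and Atp5g2, left out by the read minimum, shared 86.9% of its windows. Exons of 24 of the 81 genes overlap a gene on the opposite strand, and 4 overlap a gene on the same strand; the sources used here do not give the strand setting of the counting, so reads of such pairs may have been shared.

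**Figure D3:**
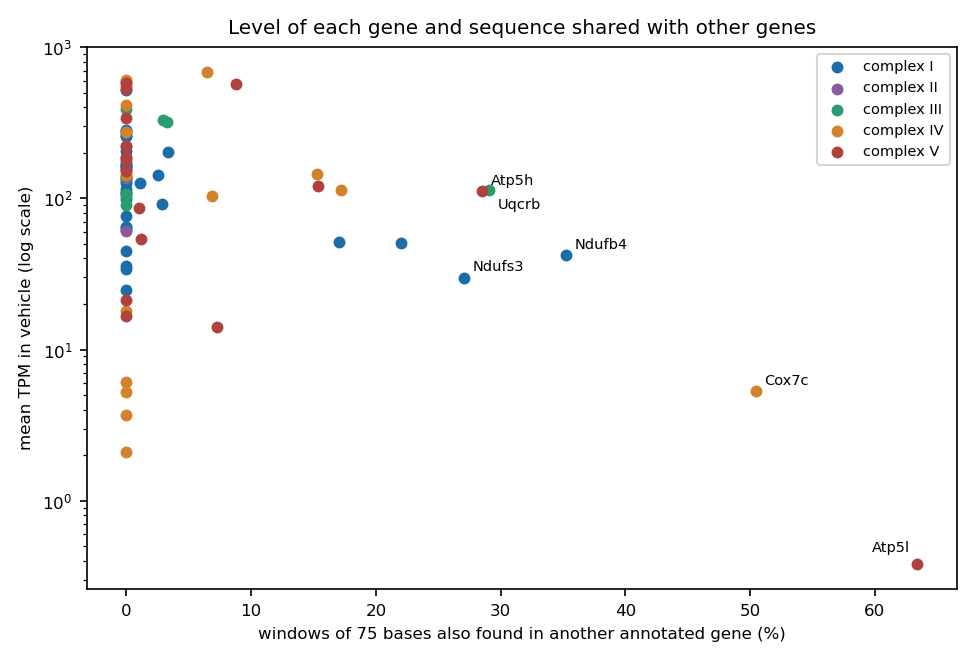
Share of 75-base windows of the main annotated transcripts of 80 of the 81 genes that also occur in another annotated gene (x axis, %). The y axis is the mean TPM in vehicle (log scale). Atp5l and Cox7c, with the largest shares, lie at 0.379 and 5.31 TPM.

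Promoters of nuclear respiratory genes are known for binding sites of nuclear respiratory factor 1 (NRF1), of the ETS-family factor GABP (nuclear respiratory factor 2) and of YY1. RefSeq gave 73 promoters for 67 of the 81 genes, on GRCm38.p6, from 250 bases before to 50 bases after the transcript start. The NRF1 letters GCGC, any base and then TGCGC, on either strand, were in 23.3% of these promoters, in 8.46% of promoters of tested genes and in 4.60% of all mouse promoters in the table. CCGGAAG (ETS) was in 21.9%, 14.7% and 8.86% of the same sets, and AAGATGGCG (YY1) in 12.3%, 2.45% and 1.40%. At least 1 of the 3 was in 49.3% of the promoters of respiratory genes, against 13.6% of all promoters and 23.1% of promoters of tested genes. Other letters were scanned too. GGGCGG (GC box) was in 37.0% of the promoters of respiratory genes, below the 58.9% of tested genes. CCAAT was in 42.5% and 37.2% of these sets, and TATAAA in 9.59% and 7.69%.

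Stretches upstream of the start are shown for genes with NRF1 or ETS letters from each complex and for the muscle isoform Cox8b. Cox8b has no NRF1, ETS or YY1 letters. GC box and CCAAT letters are not marked. Below, NRF1 and ETS letters are in capitals, CTTCCGG being the ETS letters on the other strand:

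Ndufa11 (chr17:56717682-56717731, plus strand): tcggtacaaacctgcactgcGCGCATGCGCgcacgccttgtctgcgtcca
Ndufs6 (chr13:73328483-73328518, minus strand): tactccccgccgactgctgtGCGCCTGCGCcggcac
Sdhd (chr9:50603869-50603948, minus strand): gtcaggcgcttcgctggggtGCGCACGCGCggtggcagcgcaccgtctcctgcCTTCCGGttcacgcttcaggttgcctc
Uqcr11 (chr10:80406861-80406907, minus strand): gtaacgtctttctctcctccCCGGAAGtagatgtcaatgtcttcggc
Cox6a1 (chr5:115348959-115349140, minus strand): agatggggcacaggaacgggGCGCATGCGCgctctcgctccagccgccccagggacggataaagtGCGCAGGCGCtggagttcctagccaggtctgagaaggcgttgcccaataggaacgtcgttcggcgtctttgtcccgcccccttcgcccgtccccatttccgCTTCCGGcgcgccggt
Atp5k (chr5:108434420-108434469, minus strand): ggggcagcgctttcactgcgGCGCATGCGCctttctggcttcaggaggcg
Cox8b (chr7:140900447-140900526, minus strand): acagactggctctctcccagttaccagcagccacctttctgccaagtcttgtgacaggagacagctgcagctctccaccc

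NRF1 letters were found for 7 genes of complex I, 2 of complex II, 1 of complex III, 1 of complex IV and 5 of complex V, of 32, 3, 5, 12 and 15 genes with a promoter. The median log2 fold change was -0.16 with NRF1 letters and -0.17 without, -0.12 with ETS letters and -0.17 without, and -0.21 with YY1 letters and -0.16 without. A match of letters is a description of the sequence and no measure of binding.

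Complex I, the NADH dehydrogenase, had a log2 fold change below 0 for all 36 genes, with a median of -0.18, or -0.11 without vincristine replicate 1. Some genes near 0 crossed it in alternatives, among them Ndufa12, Ndufa7, Ndufb9 and Ndufs7, and Ndufa8, at -0.09, which stood at 0.05 without vincristine replicate 1. Of the 36, 13 did not overlap between groups, all lower (9.51% of tested genes), and 4 had an unadjusted p under 0.05 (3.27% of tested genes lower). The summed level was 2374, 2723 and 2688 CPM in vincristine, against 3117, 2939 and 2809 CPM in vehicle. No vincristine sum reached the lowest vehicle sum.

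The 7 nuclear-encoded core subunits, which carry the flavin and most iron-sulfur clusters, all had log2 fold changes below 0. Ndufs8, an iron-sulfur subunit, had 62.6, 70.2 and 68.2 CPM in vincristine, against 88.6, 75.3 and 78.3 CPM in vehicle, which is -0.27 ± 0.11 on the log2 scale (fold change ± SE, as in the values that follow; edgeR adjusted p = 0.412). Ndufv2, which holds another cluster, had 116, 129 and 119.9 CPM against 146, 142 and 133 CPM in vehicle, at -0.21 ± 0.11. The groups were apart in Ndufs8 and in Ndufv2.

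In Ndufs1, Ndufv1, Ndufs3 and Ndufs7 they overlapped, and vincristine replicate 1 was the lowest library. Ndufs1 had 107, 128 and 137 CPM in vincristine against 134, 151 and 144 CPM in vehicle, at -0.21 ± 0.13. Ndufv1, which binds the flavin that takes electrons from NADH, had 99.4, 141 and 138 CPM in vincristine against 139.5, 150.4 and 134 CPM in vehicle. Its log2 fold change of -0.16 ± 0.16 was -0.02 without vincristine replicate 1. Ndufs3 had a log2 fold change of -0.11 ± 0.14 and Ndufs7 of -0.10 ± 0.13, and without that library Ndufs7 stood at 0.01. Over the 7 genes the median log2 difference from the vehicle mean was -0.36 in vincristine replicate 1, and -0.10 and -0.06 in replicates 2 and 3.

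The 28 accessory subunits, which surround the core and include most small membrane proteins, had a median of -0.17, and the median differences were -0.22, -0.11 and -0.12 in vincristine replicates 1, 2 and 3. Ndufb3, a small subunit of the membrane arm, had the most negative estimate of all 81 genes. Ndufb3 lies on chromosome 1 from 58586384 to 58595964 on the plus strand (GRCm38, GENCODE M21). It had 40.5, 48.2 and 52.6 CPM in vincristine, against 62.8, 61.9 and 57.9 CPM in vehicle, a log2 fold change of -0.37 ± 0.12 with a 95% interval from -0.65 to -0.08. All 3 vincristine values were below those of vehicle, but the adjusted p was 0.321 (edgeR) or 0.152 (DESeq2). Ndufb6, also of the membrane arm, had 53.3, 62.8 and 63.7 CPM against 78.1, 72.8 and 66.7 CPM in vehicle, at -0.28 ± 0.12 (edgeR adjusted p = 0.435).

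Ndufa4 had 192, 249.8 and 240.3 CPM in vincristine, against 310.2, 272 and 275 CPM in vehicle, at -0.33 ± 0.15 (edgeR adjusted p = 0.469), and its groups did not overlap. Without it the median of complex I was -0.17. The estimates nearest 0 were those of Ndufb9 at -0.06 ± 0.12, Ndufa7 at -0.04 ± 0.13 and Ndufa12 at -0.01 ± 0.11. Ndufa12 had 31.1, 31.4 and 31.2 CPM in vincristine, within the vehicle values of 33.5, 33.0 and 27.6 CPM.

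Complex II, succinate dehydrogenase, is the only complex with no subunit encoded by mitochondrial DNA, and also belongs to the tricarboxylic acid cycle. Its median log2 fold change was -0.11, and -0.02 without vincristine replicate 1. Sdhd had 93.7, 96.0 and 102 CPM in vincristine, against 114, 107 and 104 CPM in vehicle, at -0.16 ± 0.10 (edgeR adjusted p = 0.601). It was the only 1 of the 4 genes with no overlap (9.51% of tested genes lower). Sdha, the flavoprotein that oxidises succinate, stood at -0.12 ± 0.12, Sdhb, the iron-sulfur subunit, at -0.10 ± 0.15, and Sdhc, the other membrane anchor, at -0.05 ± 0.10. Their groups overlapped, and Sdhb stood at 0.03 without vincristine replicate 1.

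Complex III, the cytochrome bc1 complex, had a median log2 fold change of -0.16, and -0.14 without vincristine replicate 1. Uqcrfs1, the Rieske iron-sulfur protein, had 72.6, 87.0 and 92.1 CPM in vincristine, against 101, 101 and 95.1 CPM in vehicle, at -0.24 ± 0.12 (edgeR adjusted p = 0.510). It was the only gene of this complex without overlap, 1 of 9, near the share of all tested genes (9.51% lower). Uqcr11, a small subunit, had 72.9, 67.0 and 66.4 CPM against 95.2, 71.9 and 77.8 CPM in vehicle, at -0.25 ± 0.13, and Uqcr10, another, stood at -0.17 ± 0.11. Uqcrh, the hinge protein, stood at -0.09 ± 0.12 and Uqcrq at 0.01 ± 0.11. For Uqcr11, Uqcr10 and Uqcrh, vincristine replicate 1 was the highest vincristine library, unlike in the core subunits of complex I.

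Complex IV, cytochrome c oxidase, had a median log2 fold change of -0.11, with 11 genes below 0 and 5 above. The median was -0.06 without vincristine replicate 1 and 0.0039 in limma-voom with sample quality weights. Cox7b had 103, 115 and 109 CPM in vincristine, against 145, 129 and 123 CPM in vehicle, at -0.28 ± 0.11 (edgeR adjusted p = 0.413). Cox7a2 had 121, 131 and 134 CPM against 169, 154 and 141 CPM in vehicle, at -0.26 ± 0.12, and Cox8a had 117, 136 and 136 CPM against 157, 146 and 142 CPM in vehicle, at -0.20 ± 0.12. The groups did not overlap in these 3 of the 16 genes (9.51% of tested genes lower), all of them small subunits of most tissues. Cox6b1 stood at -0.12 ± 0.12, Cox6a1 at -0.11 ± 0.16 and Cox4i1 at -0.08 ± 0.13, each with overlap.

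The genes of complex IV with positive estimates were Cox8b, Cox6a2, Cox7a1, Cox7c and Cox6b2. Cox8b, on chromosome 7 from 140898945 to 140900446 on the minus strand, had 2.25, 2.98 and 0.771 CPM in vincristine, against 0.672, 0.208 and 1.30 CPM in vehicle, a log2 fold change of 1.41 ± 0.68 with an interval from -0.20 to 3.02 (edgeR adjusted p = 0.499). Cox6a2 had 1.39, 4.12 and 1.19 CPM against 0.896, 0.365 and 1.65 CPM in vehicle, at 1.20 ± 0.65. Cox7a1 had 5.34, 5.27 and 3.58 CPM against 4.15, 3.07 and 4.20 CPM in vehicle, at 0.30 ± 0.24. The groups overlapped in all 3, which are the heart and skeletal muscle isoforms.

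Each isoform was also expressed as its share of the reads of its isoform group. Cox8b made up 1.53 ± 0.849% of COX8 reads in vincristine and 0.492 ± 0.388% in vehicle, Cox6a2 1.22 ± 0.776% and 0.519 ± 0.384% of COX6A reads, and Cox7a1 3.57 ± 0.859% and 2.42 ± 0.464% of COX7A reads (SD, n = 3 each). The exact two-sided permutation p was 0.2 for each of these 3 shares, or 0.35 after Benjamini-Hochberg adjustment over the 7 shares compared; 0.1 is the smallest p that 3 against 3 libraries allow. Cox6b2 made up 1.94 ± 0.797% and 1.61 ± 0.517% (p = 0.5, exact permutation), and Cox4i2 0.174 ± 0.0348% and 0.191 ± 0.0503% (p = 0.8, exact permutation). The ubiquitous isoform held most of the reads of its group in every library.

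Skeletal muscle markers varied widely between libraries, and 0 of 12 passed the edgeR threshold. Of the 12 markers such as Ckm, Mb and Myh2, none of them at 0 in any library, 11 had a positive log2 fold change. The 12 summed to 253, 1182 and 305 CPM in vincristine, against 118, 168 and 616 CPM in vehicle. These sums include Pvalb, a gene not confined to muscle and the only 1 below 0, at -0.14. Pvalb had 29.4, 60.7 and 34.5 CPM in vincristine, against 37.0, 40.5 and 59.5 CPM in vehicle. The highest library, vincristine replicate 2, was also the highest for Cox6a2 and Cox8b. Vehicle replicate 3 was the highest vehicle library for the markers and for all 3 isoforms. Vincristine replicate 1, with a lower marker sum than vehicle replicate 3, was above it for Cox8b and Cox7a1 and below it for Cox6a2. The part of muscle tissue in these values was not tested.

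**Figure D4:**
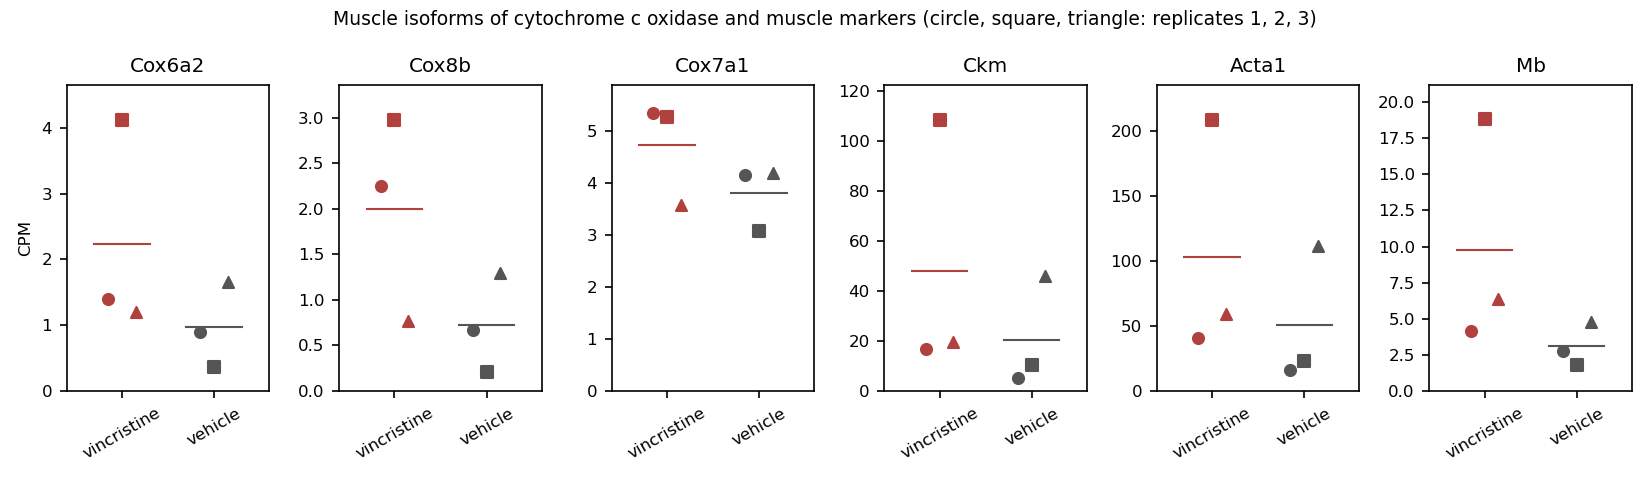
CPM (y axis) of the muscle isoforms Cox6a2, Cox8b and Cox7a1 and of the skeletal muscle markers Ckm, Acta1 and Mb in each library, with a line at the mean of each group. Vincristine replicate 2 (square) is the highest library in each panel but that of Cox7a1, where replicate 1 has 5.34 CPM and replicate 2 has 5.27 CPM.

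Complex V, the ATP synthase, had 15 of 16 estimates below 0, with a median log2 fold change of -0.17, and -0.12 without vincristine replicate 1. The groups did not overlap in 7 genes, all lower (9.51% of tested genes). Atp5k, subunit e of the membrane part, lies on chromosome 5 from 108433244 to 108434448 on the minus strand. It had 70.2, 67.8 and 70.7 CPM in vincristine, against 90.8, 82.3 and 76.5 CPM in vehicle, at -0.26 ± 0.10 (edgeR adjusted p = 0.409). The 4 genes of the stalk that holds the catalytic head had median differences from the vehicle mean of -0.18, -0.12 and -0.13 in vincristine replicates 1, 2 and 3. The groups did not overlap in 3 of these 4 (9.51% of tested genes lower). Atp5j, coupling factor 6 of the stalk, stood at -0.10 ± 0.09.

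In the 5 genes of the catalytic head the median differences were -0.38, -0.05 and -0.02 in the same libraries. Atp5b had 735, 973 and 977 CPM in vincristine, against 965, 991 and 954 CPM in vehicle. Its log2 fold change of -0.12 ± 0.18 was 0.01 without vincristine replicate 1, which alone was low. Atp5e, the epsilon subunit, stood at -0.06 ± 0.14, Atp5l at 0.07 ± 0.34, and Atp5sl, which encodes no subunit, at -0.26 ± 0.13.

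The membrane ring of the ATP synthase is made of a subunit encoded alike by Atp5g1, Atp5g2 and Atp5g3. Atp5g1 had 18.7, 24.9 and 24.7 CPM in vincristine, against 27.2, 27.0 and 27.1 CPM in vehicle, at -0.25 ± 0.13 (edgeR adjusted p = 0.536). Atp5g3 had 114, 152 and 159 CPM against 165, 152 and 146 CPM in vehicle, at -0.12 ± 0.15. Atp5g1 held 13.8 ± 0.396% of the reads of the 3 genes in vincristine and 14.9 ± 0.747% in vehicle, with no overlap (exact permutation p = 0.1, 0.35 after Benjamini-Hochberg adjustment). Atp5g2 held 0.106% and 0.125% (p = 0.6, exact permutation), with most of its windows shared with other genes.

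Set side by side, the complexes had median log2 fold changes of -0.18 (I), -0.11 (II), -0.16 (III), -0.11 (IV) and -0.17 (V), and differences between complexes were not tested. The ratio of summed CPM, vincristine over vehicle, was 0.878 for complex I, 0.927 for complex II, 0.908 for complex III, 0.907 for complex IV and 0.906 for complex V. Without vincristine replicate 1 the ratios were 0.916, 0.970, 0.936, 0.938 and 0.964 in the same order. The sums did not overlap between groups for complexes I, III and V, and did so for complexes II and IV.

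Other mitochondrial gene lists were measured in the same fit. The 43 tested assembly factors, which build the complexes without staying in them, had a median log2 fold change of -0.18, or -0.11 without vincristine replicate 1, with 40 below 0 and 14 lower with no overlap between groups (9.51% of tested genes). Ndufaf6, a complex I assembly factor, had the most negative estimate among them, -0.50 ± 0.15 (edgeR adjusted p = 0.276). The 75 tested genes of the mitochondrial ribosome had a median of -0.16, or -0.09 without that library, with 69 below 0 and 21 lower with no overlap (9.51% of tested genes). The 18 genes listed for the tricarboxylic acid cycle had a median of -0.11, or -0.04 without that library. Their median differences were -0.37, -0.04 and -0.03 in vincristine replicates 1, 2 and 3. This list includes Pdha1, Pdhb, Pdhx, Dlat and Dld of pyruvate dehydrogenase, which feeds the cycle, at -0.18, -0.18, -0.25, -0.24 and -0.06. The most negative of the 18 was Sucla2, at -0.36 ± 0.17. The 9 chain genes outside the symbol pattern, such as Cycs (cytochrome c), had a median of -0.14, or -0.09 without it.

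The 14 regulators of mitochondrial biogenesis had a median of -0.03 with and without vincristine replicate 1, and 8 were below 0. Ppargc1a, the coactivator PGC-1alpha, stood at -0.03 ± 0.10, and Pprc1 and Nrf1 at 0.33 ± 0.16 and 0.23 ± 0.13. In these last 2 of the 14 genes the groups did not overlap, both higher, near the share of all tested genes (11.5%). None of the genes in these lists passed the edgeR threshold. The mitochondrially encoded subunits, of which 7 of 13 were tested, had a median of -0.14, or -0.24 without vincristine replicate 1, but another order of libraries: the median differences were 0.09, -0.12 and -0.38 in vincristine replicates 1, 2 and 3. They summed to 14071, 12448 and 10073 CPM in vincristine, against 14154, 12757 and 13398 CPM in vehicle. Of the 13, 5 had 0 reads in every library, and mt-Co2 had reads only in vehicle replicate 2, at 0.104 CPM. The median and sums therefore cover part of the set, and the cause of the missing reads was not tested. Vincristine replicate 1, lowest for the nuclear-encoded genes, was the highest vincristine library here.

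Cell type markers also differed between the libraries. Over the 12 neuronal markers, all of them detected in every library, the median was -0.46 on the log2 scale, or -0.15 without vincristine replicate 1, with differences of -1.49, -0.24 and -0.05 in vincristine replicates 1, 2 and 3 from the vehicle mean. The median was 0.15 for satellite glia, 0.10 for Schwann cells, 0.11 for fat and 0.03 for vessel wall. Without vincristine replicate 1 these medians were 0.13, -0.0058, -0.28 and -0.17 in the same order. The 8 neutrophil markers had a median of 2.06, or 1.42 without that library, all 8 called by DESeq2 and none by edgeR, and summed to 7541, 2456 and 2789 CPM in vincristine, against 1341, 778 and 948 CPM in vehicle. The 5 red cell markers had a median of 1.51, or 1.05 without it, with 3 called by DESeq2. The part of these cell types in the levels of the respiratory chain genes was not tested.

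**Figure D5:**
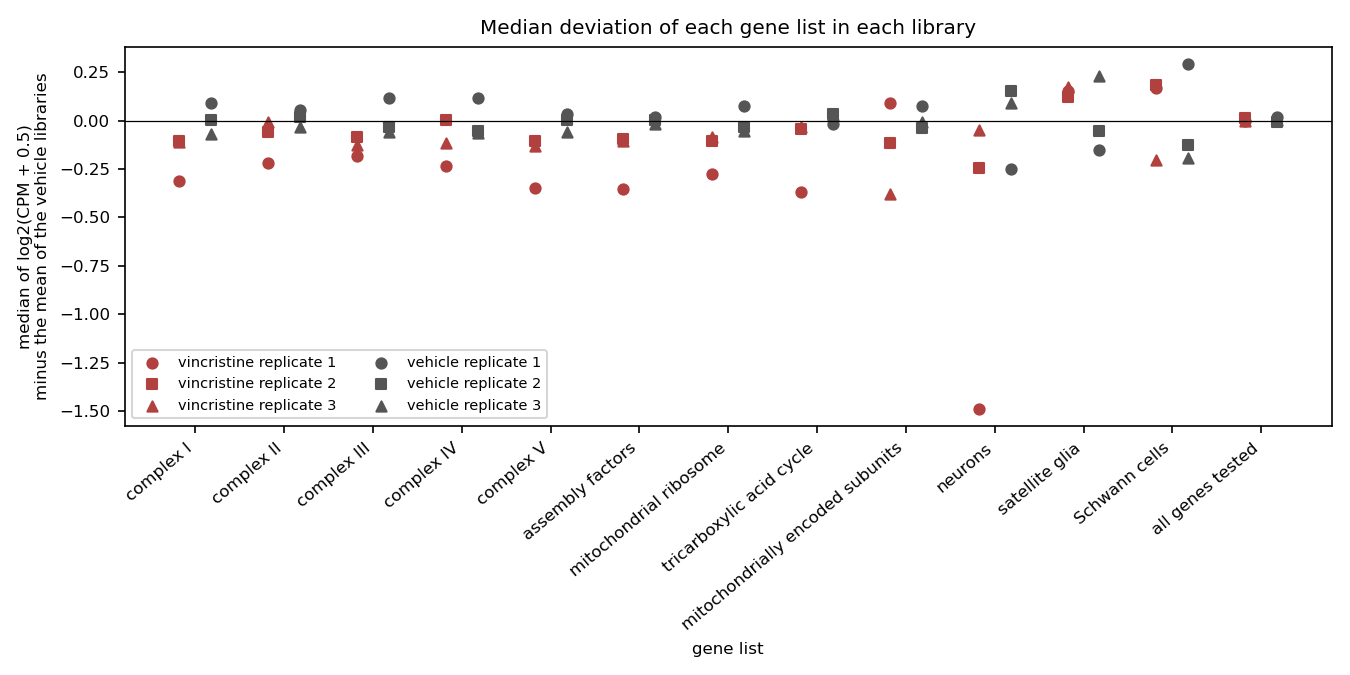
Median log2 difference from the vehicle mean in each library for the 5 complexes and for other gene lists. Vincristine replicate 1 is lowest for the nuclear-encoded complexes, at -0.18 to -0.35, and lies at 0.09 for the mitochondrially encoded subunits.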

How the data were processed

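RNA of 6 pools of mouse dorsal root ganglia was sequenced. Ganglia were placed in RNAlater and stranded total RNA libraries were sequenced as 75-nucleotide single reads, per the labels' protocols. The authors deposited raw read counts per gene symbol, not normalized. STAR, SAMtools and HTSeq were used with mm10 (GRCm38), per the submitters' processing notes. The sources used here give no versions, annotation or strand setting. HTSeq as a rule keeps uniquely aligned reads, which lowers genes with near-identical copies. Groups follow the sample titles, which differ from the table names: these state 10 µg, not 40 µg, and a vehicle replicate 4, not 3.

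The test was that of edgeR 4.0.16, run in R 4.3.3 (filterByExpr, minimum count 10; TMM; robust quasi-likelihood fit; two-sided, Benjamini-Hochberg over 16706 genes). Treatment was the only term, with 4 residual degrees of freedom and a common biological coefficient of variation of 0.193. CPM values use TMM-scaled library sizes, TPM values the exon length of GENCODE M21 on GRCm38, and differences per library log2(CPM + 0.5). Shares of isoforms were compared with exact permutation tests. The steps were tested on simulated counts with 50 changed genes per fold. At 1.5-, 2-, 4- and 8-fold, edgeR recovered 0, 28, 40 and 48 of them, and DESeq2 9, 38, 46 and 50. Within each group, no library was a copy of another by chi-square tests of counts, and pairs across the groups were not compared. Genes were named by a rule: per complex, the genes with the largest and smallest fold changes (3 and 3, or 2 and 2 in complexes II and III), the most abundant gene, isoform groups and core subunits; 1 gene is not reported here. Of 161 entries of 13 other gene lists, 4 had no match. The genes, lists and tests were chosen with earlier results of these data known. Alternatives were DESeq2 1.42.0, limma-voom of limma 3.58.1 with and without sample weights, other scalings and filters, the replicate number as a block and leaving out each library. Low counts are least precise in vincristine replicate 1, which had 12374331 reads in genes.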

Additional observations from a re-analysis of the deposited data

How the results depend on the processing

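None of the 81 genes was called under any alternative run, and their median log2 fold change lay between -0.20 and -0.10. With sample quality weights, which give vincristine replicate 1 little weight, the median of complex IV was 0.0039 and that of complex III -0.10. Over all genes tested, edgeR called 60 (1900 at an unadjusted p under 0.05). DESeq2 called 569, limma-voom 35, limma-voom with quality weights 474, and edgeR with no filter on low counts 99. Leaving out each library gave 0 to 346 genes with edgeR: 0 without any of the vehicle libraries (1462, 1063 and 1409 at an unadjusted p under 0.05), 346 without vincristine replicate 1, 6 without replicate 2 and 18 without replicate 3. DESeq2 with a library left out, chosen after seeing the data, gave 331, 212 and 328 without vehicle replicates 1, 2 and 3, and 638, 609 and 551 without vincristine replicates 1, 2 and 3. The labels do not say that replicate numbers mark a shared batch, and deviations of same-numbered libraries correlated at 0.43, 0.25 and -0.09, so libraries were not paired; with the replicate block 261 genes were called. Without vincristine replicate 1, an alternative added after seeing the data, 31 of the 81 genes did not overlap downward and 2 upward.

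Estimates near 0 crossed it. Uqcrq was -0.00059 with DESeq2, -0.0014 with RLE scaling and -0.0091 with no filter. Ndufa12 was 0.00052 with limma-voom, 0.0011 with a minimum of 1 CPM, 0.00011 with the replicate block and 0.0087 with quality weights. The weights also gave 0.029 for Cox4i2, 0.0058 for Cox6a1, 0.042 for Ndufa7, 0.0036 for Ndufs7 and 0.0072 for Sdhc. Leaving out each library gave ranges of -0.19 to 0.0072 for Atp5b, -0.17 to 0.037 for Atp5e, -0.22 to 0.011 for Atp5g3, -0.15 to 0.27 for Atp5l, -0.18 to 0.0088 for Cox6a1, -0.16 to 0.34 for Cox6b2, -0.092 to 0.047 for Ndufa12, -0.13 to 0.061 for Ndufa7, -0.14 to 0.019 for Ndufb9, -0.17 to 0.0054 for Ndufs7, -0.20 to 0.027 for Sdhb, -0.081 to 0.013 for Sdhc and -0.042 to 0.095 for Uqcrq. With the length of the longest transcript, Ndufa4, Sdhd, Uqcr10, Cox6a1 and Atp5b had 501, 191, 383, 667 and 1098 TPM in vehicle. Sdhb, Uqcrh and Cox4i1 were then the most abundant of their complexes, and Atp5b was the most abundant of all. The reads are the same in both measures, and only the lengths differ. Cox4i1 has 1550 exon bases but 765 in its longest transcript, while Cox6a1 has 702 and 620.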
